A study of Homo sapiens with 12 samples.

Results

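The replication-dependent histone genes are the coding genes of the histone clusters, which were taken by symbol: H1-1 to H1-6 and the genes whose current symbols start with H2AC, H2BC, H3C or H4C, or whose older names start with HIST1H to HIST4H. The files hold 38 of these genes among 57773: 6 of H1, 9 of H2A, 11 of H2B, 7 of H3 and 5 of H4. Of the 38 genes, 24 lie on chromosome 6, 12 on chromosome 1, and 1 each on chromosomes 12 (H4C16) and 21 (H2BC12L). The annotation used lists 69 such genes. The identifiers of the other 31 do not occur in the data, so they were not analysed here. They are 8 of 17 H2A genes, 6 of 17 H2B genes, 8 of 15 H3 genes, 9 of 14 H4 genes and 0 of 6 H1 genes. Class sums and shares below cover only tested genes, and how the missing genes would change them is not known. Counts were high enough for testing in 34 genes. The 4 genes below the filter were H1-6, H2AC1, H2BC1 and H3-4, none with more than 12 counts in any library.

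The samples were cells of HuH-7, a human hepatoma line, in which V5-tagged HuR was stably expressed. HuR, the product of ELAVL1, is an RNA-binding protein known for U-rich and AU-rich sequences. One line carried the K120/182R form, which lacks a pair of lysines that can receive SUMO, a small protein modifier; it is called mutant here. The other line overexpressed the wild-type form (WT), and both lines also carry their own ELAVL1 gene. RNA recovered with the V5 tag (RNA immunoprecipitation, RIP) and RNA of the input were sequenced as total RNA. The 4 groups of 3 libraries were mutant RIP, WT RIP, mutant input and WT input. No mock precipitation and no untagged line are used here. The amount of RNA put into a library was 16 to 77 ng for precipitates but 250 ng for inputs, per the labels, and its effect cannot be told apart from that of precipitation. Separate cultures are not named in the labels. The p-values therefore reflect only how much these libraries vary, possibly for technical reasons, and each HuR form stands for 1 stable line.

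Histones are the proteins around which DNA is wound. H2A, H2B, H3 and H4 form the core of the nucleosome and H1 binds the DNA between cores. The replication-dependent genes are known to be expressed mainly in S phase, when new DNA has to be packaged. Their mRNAs are known for having no poly(A) tail: they end just after a short stem-loop that SLBP, the stem-loop binding protein, holds. Total RNA libraries, which need no poly(A) tail, can count them.

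The stem-loop is shown first because it is the RNA element that these genes share and the selection did not use. A run of 6 bases that starts with GG, a loop of 4 bases and the reverse complement of the first 6 bases was searched for after the stop codon on the transcript strand. It was found in 36 of the 38 genes, 22 to 67 bases after the stop codon, and not in H2AC11 or H2BC12L. In other coding genes only the last 100 bases of the longest coding transcript were searched, and 34 of 19149 had it, 0.178%. That search was narrower than the one in the members and would miss a loop such as that of H2BC21, which lies 1729 bases before the transcript end. The shares are therefore not on the same footing. Capitals mark the bases that pair with each other and lower case marks the loop.
H4C8: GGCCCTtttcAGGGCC
H1-5: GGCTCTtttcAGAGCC
H2BC12: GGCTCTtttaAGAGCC
H2AC20: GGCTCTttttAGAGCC
These 4 forms cover all tested members with a stem-loop. The H4C8 form was found in all 5 H4 genes and in no other member. The H1-5 form was found in 20 tested genes, the H2BC12 form in 6 and the H2AC20 form in that gene alone. On hg19 the stem-loop of H4C8 lies at chr6:26285359-26285374 on the minus strand and that of H1-5 at chr6:27834575-27834590 on the minus strand.

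The 5 H4 genes encode 1 protein with different codons. Their coding sequences, 312 bases each, were identical at 80.4% (H4C3 and H4C11) to 84.0% (H4C2 and H4C11) of positions. The first 60 coding bases are shown because the 5 genes behaved differently below while coding for the same protein. Capitals mark bases other than the most frequent one at that position, with ties given to the first letter of the alphabet.
H4C8: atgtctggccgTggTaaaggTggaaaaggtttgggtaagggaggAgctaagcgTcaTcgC
H4C2: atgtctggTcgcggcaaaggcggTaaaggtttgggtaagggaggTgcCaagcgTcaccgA
H4C3: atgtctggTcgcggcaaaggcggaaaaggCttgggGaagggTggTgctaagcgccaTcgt
H4C16: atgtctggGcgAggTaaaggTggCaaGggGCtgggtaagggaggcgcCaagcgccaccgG
H4C11: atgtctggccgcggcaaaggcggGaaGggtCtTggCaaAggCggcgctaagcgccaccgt
The GC content of the whole coding sequence was 54.5% in H4C8, 54.8% in H4C3, 56.4% in H4C2, 60.9% in H4C16 and 64.1% in H4C11.

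Library totals ran from 31774994 to 73149117 gene counts. The 34 tested histone genes held 0.754% to 1.04% of the counts in RIP libraries and 0.387% to 0.606% in inputs. Levels are CPM, counts scaled to a common size, with library sizes adjusted by TMM, a method that sets the bulk of genes level between libraries. Every fold change below is a log2 value with its standard error (SE) after ±, so 0 stands for a gene that moves like most others. A gene counts as called when edgeR's quasi-likelihood test gave it an adjusted p (Benjamini-Hochberg, over 22984 genes) below 0.05. With total library sizes in place of TMM, the median of all genes moved from near 0 to 1.4 in the mutant enrichment and 1.1 in the WT enrichment. It moved to 0.25 in the difference of enrichments, −0.17 between precipitates and −0.43 between inputs. All 8 hepatocyte markers checked, among them ALB and AFP, were counted in every library. Their summed level was 3434 to 3868 CPM in mutant RIP and 8024 to 9161 in mutant input, and 5639 to 5948 in WT RIP and 10441 to 12442 in WT input. Of the leukocyte, endothelial and stromal markers, 3 of 4, 2 of 2 and 2 of 3 stayed under 1 CPM in all libraries. ELAVL1, counted from the tagged copy and the cell's own gene alike, averaged 27.2 ± 3.74 CPM in mutant RIP and 34.5 ± 3.03 in WT RIP, and 48.3 ± 4.18 in mutant input and 58.2 ± 5.32 in WT input (SD, n = 3 each). Neither difference between the lines was called (adjusted p = 0.0561 between precipitates and 0.14 between inputs).

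The make-up of the histone counts differed between precipitates and inputs, in both lines alike. Within a library the share of each class does not depend on the library's scaling. The histone counts here are those of the 34 tested genes, with 5 of the 14 annotated H4 genes but 5 of the 6 H1 genes among them. The shares are therefore not those of all histone mRNAs. H4 took 42.4%, 45.5% and 51.2% of the histone counts in the 3 mutant RIP libraries, against 16.0%, 17.4% and 17.1% in mutant inputs. Of the WT libraries, H4 took 41.5%, 44.7% and 42.2% in RIP, against 16.1%, 16.6% and 16.2% in inputs. Each precipitate was thus above each input for H4. H1 took 20.4% ± 2.86 (SD, n = 3) in mutant RIP against 13.9% ± 0.931 in mutant input, and 20.0% ± 2.77 in WT RIP against 14.5% ± 0.281 in WT input. H2A took 12% ± 0.0943 in mutant RIP against 24.6% ± 0.52 in mutant input, and 12.4% ± 0.891 in WT RIP against 23.7% ± 0.328 in WT input. H2B took 10.5% ± 0.755 in mutant RIP against 21.9% ± 0.217 in mutant input, and 12.5% ± 0.269 in WT RIP against 22.4% ± 0.93 in WT input. H3 took 10.7% ± 0.943 in mutant RIP against 22.8% ± 1.38 in mutant input, and 12.3% ± 0.244 in WT RIP against 23.1% ± 0.678 in WT input. The H3 share and the histone total include both H3C14 and H3C15, near-copies that were not measured apart. The size of the shares depends on this, and none were taken with either gene left out. In all 5 classes and both lines, the 3 precipitates did not overlap with the 3 inputs. An exact two-sided permutation test of 3 against 3 libraries cannot go below 0.1, so no p-value is given for shares. In whole cells, fewer cells in S phase and less histone mRNA per cell cannot be told apart.

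**Figure D1:**
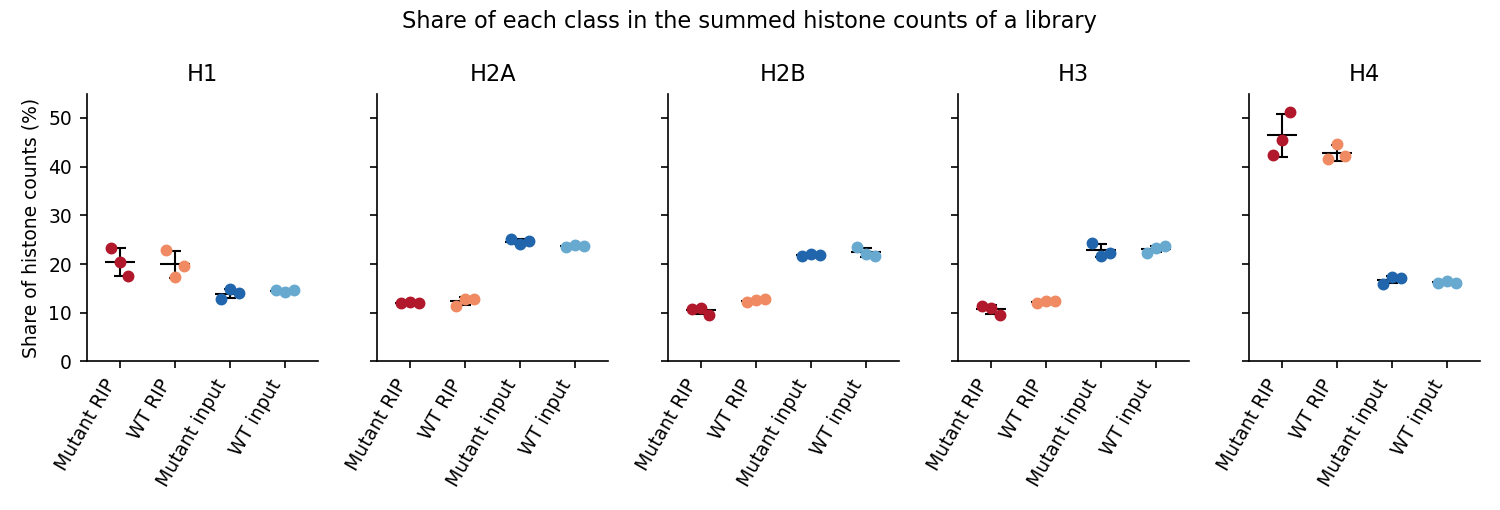
Share of each histone class in the summed counts of the 34 tested histone genes of a library (percent, linear axis from 0). Points are the 3 libraries of each group, with the mean and SD in black. H4 lies at 41.5% to 51.2% in the 6 precipitates and at 16.0% to 17.4% in the 6 inputs, while H2A, H2B and H3 are lower in every precipitate than in every input.

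The summed levels of the same tested genes showed the same order on the CPM scale. H4 genes summed to 3024 ± 620.8 CPM in mutant RIP against 1282 ± 111.8 in mutant input, and to 2380 ± 767.2 in WT RIP against 1132 ± 57.7 in WT input (SD, n = 3 each). H2A genes summed to 785.3 ± 149 CPM in mutant RIP against 1885 ± 264.7 in mutant input, and to 690.9 ± 228.8 in WT RIP against 1649 ± 97.9 in WT input. The log2 ratio of the means, RIP over input, was 1.24 for H4, −1.26 for H2A, −1.29 for H2B and −1.33 for H3 in the mutant line. It was 1.07 for H4, −1.25 for H2A, −1.17 for H2B and −1.23 for H3 in the WT line, and these groups of libraries did not overlap in either line. With total library sizes, the mutant ratios became 2.53 for H4, 0.03 for H2A, 0.00 for H2B and −0.04 for H3, so H2A, H2B and H3 then lay near 0 while the typical gene moved up by more than 1. H1 sums overlapped between RIP and input in both lines (log2 ratio 0.32 in the mutant line and 0.095 in the WT line). Among the precipitates, library 2 had the highest histone sum in each line, 7831 CPM against 5524 and 6181 in mutant RIP, and 7249 against 4239 and 5079 in WT RIP.

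Gene by gene, 6 of the 34 tested histone genes were higher and 22 lower in mutant RIP than in mutant input, where 29.0% of all tested genes were called higher and 28.0% lower. WT RIP held 6 higher and 23 lower members, where 25.6% of all genes were called higher and 25.4% lower. The median log2 fold change of the 34 genes was −0.83 in the mutant line, against 0.072 over all genes and −0.11 over all coding genes. In the WT line it was −0.75, against 0.063 over all genes and −0.13 over all coding genes. Libraries did not overlap for 6 higher and 21 lower members in the mutant line (background 32.9% and 30.3%), and for 5 higher and 23 lower in the WT line (30.4% and 28.8%). With total library sizes, 9 of the 28 called members in the mutant line and 9 of the 29 in the WT line changed sign. The members' median lay −0.91 from that of all genes in the mutant line and −0.82 in the WT line. This distance was −0.92 and −0.85 with total library sizes, −0.52 and −0.55 with the trend of each library with GC content removed, and −1.21 and −1.20 with the trend with length removed.

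**Figure D2:**
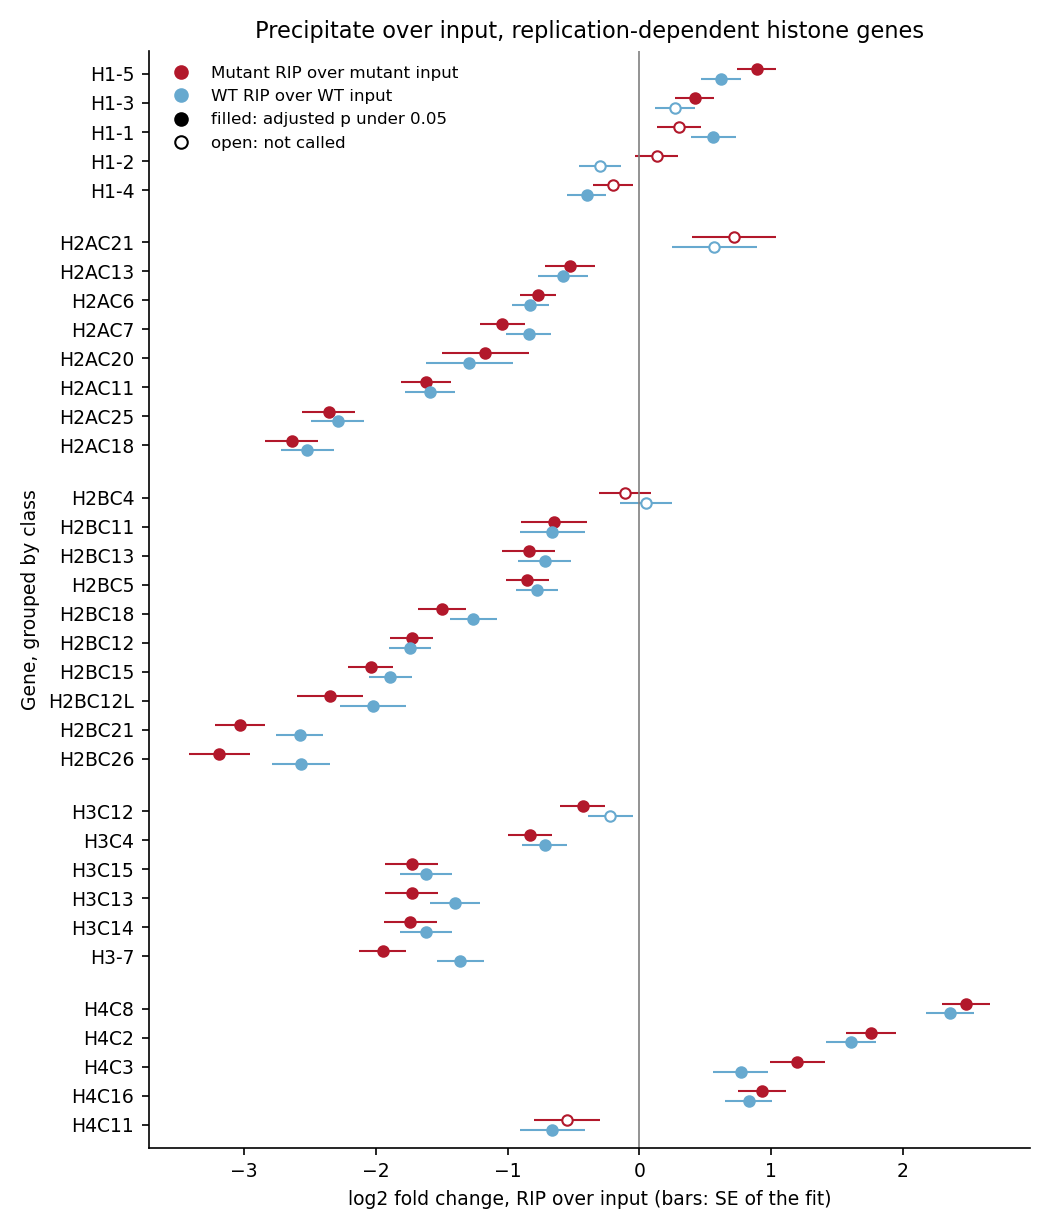
Log2 fold change of RIP over input for the 34 tested histone genes, by class, in the mutant line (red) and the WT line (blue), with the SE of the fit. Filled points passed an adjusted p of 0.05. H4 genes other than H4C11 lie right of 0, and most H2A, H2B and H3 genes lie left of it, with H2BC26 lowest in the mutant line (−3.19) and H2BC21 lowest in the WT line (−2.58).

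H4 was the class with the most members higher in precipitates: 4 of 5 in both lines, with H4C11 apart. H4C8 (HIST1H4H; chromosome 6, 26277837 to 26285866, minus strand, hg19) had 687.8, 943.8 and 827.5 CPM in mutant RIP, against 143.6, 156.9 and 140.6 in mutant input. The WT values were 551.2, 893.5 and 578.9 CPM in RIP, against 137.0, 122.2 and 134.3 in input. Each precipitate thus held several times the level of any input. The log2 fold change of H4C8 was 2.48 ± 0.18 in the mutant line (adjusted p = 1.37e-11) and 2.36 ± 0.18 in the WT line (adjusted p = 6.9e-11). H4C2 (HIST1H4B; chromosome 6, 26027124 to 26027480, minus strand) had 914.8, 1330 and 1178 CPM in mutant RIP, against 342.7, 362.3 and 307.4 in mutant input. WT RIP libraries had 705.4, 1332 and 864.3 CPM, against 295.8, 318.2 and 334.7 in WT input. Its log2 fold change was 1.76 ± 0.19 in the mutant line (adjusted p = 2.38e-08) and 1.61 ± 0.19 in the WT line (adjusted p = 1.39e-07), with no overlap of the libraries.

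H4C3 (HIST1H4C; chromosome 6, 26104161 to 26104565, plus strand) had 398.6, 733.9 and 665.0 CPM in mutant RIP, against 253.1, 281.4 and 246.2 in mutant input. In the WT line it had 268.2, 520.6 and 360.8 CPM in RIP, against 218.3, 221.1 and 234.7 in input. The groups did not overlap in either line, and its log2 fold change was 1.20 ± 0.21 in the mutant line (adjusted p = 6.56e-05) and 0.77 ± 0.21 in the WT line (adjusted p = 0.00477). With the trend of each library with length removed, the WT call of H4C3 was lost (0.36, adjusted p = 0.102). H4C16 (HIST4H4), which lies alone on chromosome 12 (14920933 to 14924065, minus strand), had 123.4, 173.2 and 160.9 CPM in mutant RIP, against 86.3, 80.1 and 73.7 in mutant input. The WT values were 70.9, 132.1 and 97.6 CPM in RIP, against 53.2, 49.5 and 67 in input. It was higher in each precipitate, by 0.93 ± 0.18 in the mutant line (adjusted p = 0.000164) and 0.83 ± 0.18 in the WT line (adjusted p = 0.000679). With the trend of each library with GC content removed, neither call of H4C16 was kept (0.58, adjusted p = 0.0539, and 0.56, adjusted p = 0.0651). That trend used the GC content of the longest annotated transcript, 44.7% for H4C16, where the coding sequence has 60.9%.

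H4C11 (HIST1H4J; chromosome 6, 27791870 to 27792258, plus strand), with the highest GC content of the 5 coding sequences, went the other way. It had 220.1, 380.6 and 333.7 CPM in mutant RIP, against 569.3, 398.4 and 403.6 in mutant input. WT RIP libraries had 161.6, 358.6 and 243.8 CPM, against 371.8, 417.6 and 420.5 in WT input. Within each line, each precipitate was below each input, with −0.55 ± 0.25 in the mutant line, which was not called (adjusted p = 0.0724), and −0.66 ± 0.25 in the WT line (adjusted p = 0.0382). The WT call was lost without mutant RIP 3 (−0.67), WT RIP 1 (−0.42), WT RIP 3 (−0.64), WT input 2 (−0.63) or WT input 3 (−0.64), with adjusted p of 0.0514 to 0.112. In the mutant line it was called without mutant RIP 2 (−0.72), WT RIP 1 (−0.56), WT RIP 2 (−0.56) or mutant input 2 (−0.67), with adjusted p of 0.0165 to 0.0465. With the GC trend removed its sign turned, to 0.39 in the mutant line and 0.02 in the WT line. Of its 50-base windows, 92.1% also occur in another gene, mostly in H4C12. How reads of the pair were counted is not known, so the level of H4C11 is uncertain in either direction. The other 4 H4 genes share 0% to 2.3% of their windows with any other gene.

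**Figure D3:**
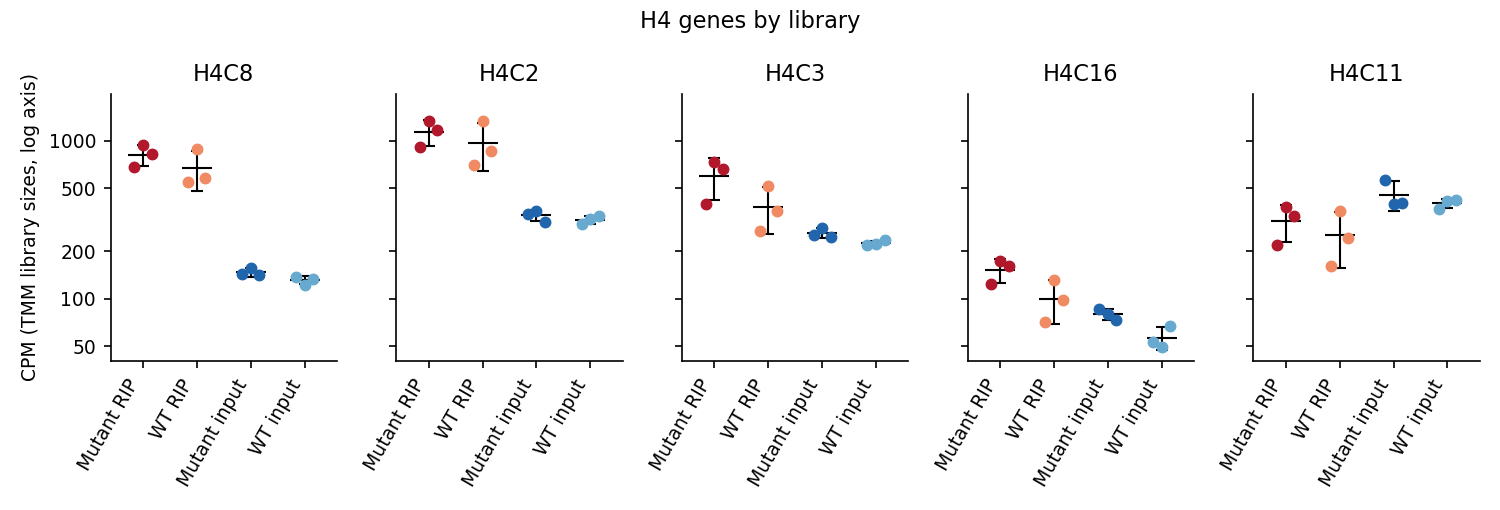
CPM of the 5 H4 genes in each library (points; log axis), with the mean and SD of each group of 3 (black). H4C8, H4C2, H4C3 and H4C16 are higher in every precipitate than in every input of the same line, and H4C11 is lower.

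Per kilobase of transcript, which allows genes to be set side by side, the H4 genes other than H4C16 also led the precipitates. H4C2 averaged 3196 ± 589 CPM per kilobase in mutant RIP, H4C8 2004 ± 313.5, H4C3 1479 ± 437.2 and H4C11 800.6 ± 212.1, followed by H1-2 with 609.8 ± 127.2. In WT RIP the first 4 genes came in the same order, at 2710 ± 912.9, 1649 ± 464.9, 946.2 ± 315.3 and 654.6 ± 254.3. H4C16 held rank 9 in mutant RIP (370.1 ± 63.1) and rank 12 in WT RIP (243.3 ± 74.4). In mutant inputs the order was H4C11 (1175 ± 249.8), H3C15 (962.8 ± 210.3), H3C14 (962.2 ± 209.6) and H4C2 (945.3 ± 77.8), and these neighbours did not differ beyond their SD. One annotated transcript was used per gene, from 357 bases for H4C2 to 2224 for H2BC21, so these levels depend on that choice.

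Of the 5 tested linker histone genes, 2 were higher and 0 lower in mutant RIP, and 2 were higher and 1 lower in WT RIP. The largest rise among them was that of H1-5. H1-5 (HIST1H1B; chromosome 6, 27834570 to 27835366, minus strand) had 443.5, 547.5 and 378.4 CPM in mutant RIP, against 270.5, 250.7 and 220.3 in mutant input. In the WT line it had 344.2, 474.0 and 407.7 CPM in RIP, against 258.6, 265.3 and 274.8 in input. All precipitates were above all inputs of their line, by 0.89 ± 0.15 in the mutant line (adjusted p = 2.31e-05) and 0.62 ± 0.15 in the WT line (adjusted p = 0.00153). H1-2, the H1 gene with the highest mean CPM, had a log2 fold change of 0.13 ± 0.16 in the mutant line (adjusted p = 0.524) and −0.30 ± 0.16 in the WT line (adjusted p = 0.136). Its 3 mutant RIP libraries held 441.0, 541.0 and 355.2 CPM, against 416.7, 431.0 and 375.3 in mutant input, so the groups overlapped. With the GC trend removed H1-2 was called higher in the mutant line (0.64, adjusted p = 0.000253) and had 0.06 in the WT line (adjusted p = 0.742). With the length trend removed it had −0.09 in the mutant line (adjusted p = 0.645) and was called lower in the WT line (−0.55, adjusted p = 0.00496). H1-4 was lower in WT RIP, by −0.40 ± 0.15 (adjusted p = 0.0326), with 144.7, 209.2 and 188.7 CPM in WT RIP, against 233.9, 223.2 and 259.5 in WT input. That call was lost without WT RIP 1 (−0.27), WT RIP 3 (−0.44), WT input 1 (−0.39) or WT input 3 (−0.34), with adjusted p of 0.0515 to 0.174, and its sign turned with total library sizes (0.63) or with the GC trend removed (0.23). H1-1 was higher in WT RIP by 0.56 ± 0.17 (adjusted p = 0.0106), which was lost without WT RIP 1 (0.34, adjusted p = 0.0959) or with the length trend removed (0.32, adjusted p = 0.114). H1-3 was higher in mutant RIP by 0.42 ± 0.15 (adjusted p = 0.0189), which was lost without mutant RIP 2 (0.25, adjusted p = 0.181) or mutant input 3 (0.36, adjusted p = 0.0798), or with the length trend removed (0.21, adjusted p = 0.204).

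The H2A genes were lower in precipitates in 7 of 8 cases in each line. H2AC18 (HIST2H2AA3; chromosome 1, 149813505 to 149814478, minus strand), the most counted of them, had 104.0, 132.3 and 93.4 CPM in mutant RIP, against 844.9, 632.6 and 580.3 in mutant input. The WT values were 74.3, 138.0 and 97.1 CPM in RIP, against 563.1, 555.2 and 660.6 in input. The groups lay far apart, with −2.64 ± 0.20 in the mutant line (adjusted p = 1.73e-10) and −2.52 ± 0.20 in the WT line (adjusted p = 6.86e-10). A share of 52.4% of the windows of H2AC18 also occurs in its near-copy H2AC19, so its level is uncertain. H2AC13, next in level, fell by much less, with −0.53 ± 0.19 in the mutant line (adjusted p = 0.0239) and −0.58 ± 0.19 in the WT line (adjusted p = 0.0158). The mutant call of H2AC13 was lost without mutant RIP 1 (−0.45), mutant RIP 3 (−0.46) or mutant input 1 (−0.44), with adjusted p of 0.067 to 0.0897, and the WT call without WT RIP 1 (−0.35, adjusted p = 0.0946). H2AC7 was lower, with −1.04 ± 0.17 in the mutant line (adjusted p = 1.94e-05) and −0.84 ± 0.17 in the WT line (adjusted p = 0.000273). Of their windows, H2AC13 shares 63.5% and H2AC7 83.9% with other genes, so their levels are uncertain as well. With total library sizes the signs of H2AC13 (0.77 in the mutant line and 0.45 in the WT line) and H2AC7 (0.25 and 0.19) turned, and that of H2AC18 did not. The signs of H2AC13 also turned with the GC trend removed (0.27 and 0.01). The member not called was H2AC21, whose exons overlap a gene on the opposite strand over 15.3% of their length. It had 34.5, 70.3 and 69.4 CPM in mutant RIP, against 37.3, 35.3 and 33.2 in mutant input (0.72 ± 0.32, adjusted p = 0.0863). In the mutant line it was called without mutant RIP 1 (0.98, adjusted p = 0.00225), WT RIP 1 (0.72, adjusted p = 0.0431) or WT RIP 2 (0.72, adjusted p = 0.00953). In the WT line H2AC21 had 0.57 ± 0.32 (adjusted p = 0.172). With the GC trend removed it was called higher, at 1.41 in the mutant line (adjusted p = 0.00611) and 1.06 in the WT line (adjusted p = 0.0252).

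The H2B genes were lower in precipitates in 9 of 10 cases in each line and held the lowest fold changes. H2BC26 (HIST3H2BB; chromosome 1, 228645804 to 228650805, plus strand) had 6.78, 10.6 and 5.92 CPM in mutant RIP, against 86.8, 63.9 and 62.1 in mutant input. WT RIP libraries had 9.07, 15.8 and 12.5 CPM, against 74.9, 72.1 and 75.7 in WT input. Every precipitate was well below every input, by −3.19 ± 0.23 in the mutant line (adjusted p = 6.04e-09) and −2.57 ± 0.22 in the WT line (adjusted p = 8.11e-08). H2BC21 (HIST2H2BE; chromosome 1, 149856009 to 149858232, minus strand) had 25.9, 34.1 and 24.4 CPM in mutant RIP, against 260.9, 219.2 and 212.0 in mutant input. In the WT line it had 30.1, 55.8 and 37.7 CPM in RIP, against 240.7, 240.5 and 258.1 in input. It was lower, with −3.03 ± 0.19 in the mutant line (adjusted p = 5.35e-12) and −2.58 ± 0.18 in the WT line (adjusted p = 1.1e-10), with no overlap. The 2 most counted H2B genes also fell. H2BC12 was lower, with −1.73 ± 0.16 in the mutant line (adjusted p = 7.44e-10) and −1.74 ± 0.16 in the WT line (adjusted p = 1.3e-09). H2BC18 was lower, with −1.5 ± 0.18 in the mutant line (adjusted p = 1.98e-07) and −1.26 ± 0.18 in the WT line (adjusted p = 3.19e-06). Other genes share 57.2% of the windows of H2BC12 and 72.7% of those of H2BC18, so these 2 levels are uncertain. The exception was H2BC4, with 121.8, 217.6 and 150.2 CPM in mutant RIP, against 189.5, 175.2 and 165.4 in mutant input. Its log2 fold changes were −0.11 ± 0.20 in the mutant line and 0.05 ± 0.20 in the WT line (adjusted p = 0.65 and 0.853), and a gene on the opposite strand overlaps 14.9% of its exons.

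The H3 genes were lower in mutant RIP in 6 of 6 cases and in WT RIP in 5 of 6. H3C14 had 141.3, 185.6 and 125.4 CPM in mutant RIP, against 627.9, 451.2 and 427.7 in mutant input. The WT values were 122.3, 219.9 and 141.7 CPM in RIP, against 458.8, 484.2 and 547.0 in input. It was lower, with −1.74 ± 0.20 in the mutant line (adjusted p = 1.9e-07) and −1.62 ± 0.20 in the WT line (adjusted p = 7.11e-07). H3C15 is its near-copy: the ratio of their counts was 0.9908 to 0.9947 in every library, so the 2 genes were not measured apart and do not add up to independent calls. H3C4 was lower, with −0.83 ± 0.17 in the mutant line (adjusted p = 0.000232) and −0.72 ± 0.17 in the WT line (adjusted p = 0.00128), with its sign turning under total library sizes (0.46 and 0.32). Other genes share 96.5% of the windows of H3C4, so its level is uncertain. Both calls of H3C4 were lost with the GC trend removed (−0.15, adjusted p = 0.378 in the mutant line, and −0.22, adjusted p = 0.184 in the WT line). With that trend removed H3C14 was still called, at −0.55 in the mutant line (adjusted p = 0.00173) and −0.75 in the WT line (adjusted p = 6.97e-05). H3C12, the H3 gene nearest to 0, fell by 0.43 ± 0.17 in the mutant line (adjusted p = 0.0326), and had −0.22 ± 0.17 in the WT line (adjusted p = 0.285). The mutant call of H3C12 was lost without mutant RIP 1 (−0.33), mutant RIP 3 (−0.35) or mutant input 1 (−0.37), with adjusted p of 0.0821 to 0.131. In the WT line H3C12 was called without WT RIP 2 (−0.41, adjusted p = 0.0447). With the GC trend removed its sign turned, to 0.54 in the mutant line (adjusted p = 0.0022) and 0.52 in the WT line (adjusted p = 0.00384).

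Several features ran along with the fold changes, and none was tested as a cause. The 11 tested members on chromosome 1, all H2A, H2B or H3 genes, had a median log2 fold change of −1.74 in the mutant line and −1.62 in the WT line. The 12 H2A, H2B and H3 members on chromosome 6 had medians of −0.83 in the mutant line and −0.75 in the WT line. A transcript annotated to reach at least 100 bases past the stem-loop was listed for 13 tested members, whose median was −1.5 in the mutant line and −1.26 in the WT line. The 19 members without one had medians of −0.53 in the mutant line and −0.58 in the WT line. Both sets held higher and lower genes, since H4C8 and H4C16 have such a transcript and H4C2 and H4C3 have none. The 12 members that share at least 50% of their 50-base windows with other genes had 0 higher and 11 lower calls in the mutant line, and 0 and 12 in the WT line. They were H2AC7, H2AC13, H2AC18, H2BC12, H2BC12L, H2BC18, H3-7, H3C4, H3C13, H3C14, H3C15 and H4C11. The other 22 members, whose counts are the more certain, had 6 higher and 11 lower calls in each line. By stem-loop form, the 20 genes with the H1-5 form had medians of −1.27 in the mutant line and −1.05 in the WT line, and the 6 with the H2BC12 form had −0.38 in the mutant line and −0.30 in the WT line. The 5 with the H4C8 form, which are the H4 genes themselves, had 1.20 in the mutant line and 0.83 in the WT line.

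Members with more GC in the coding sequence tended to have lower fold changes. Across the 34 genes, which share libraries and partly sequence, Pearson's r between coding GC content and log2 fold change was −0.58 in the mutant line and −0.59 in the WT line (Spearman's rho −0.55 and −0.54). Without the H4 genes, over 29 genes, r was −0.45 in the mutant line and −0.47 in the WT line. The T content of the coding sequence gave r of 0.56 in the mutant line and 0.59 in the WT line over all 34 genes, but 0.041 and 0.094 over the 29 without H4. Over the same 29 genes Spearman's rho for T was 0.22 in the mutant line and 0.25 in the WT line. The GC content of the longest annotated transcript can also be had for other genes. With it, r over the 34 members was only −0.11 in the mutant line and −0.15 in the WT line, and 0.12 and 0.077 without H4. Over 14017 coding genes, r between transcript GC content and log2 fold change was −0.52 in the mutant line and −0.43 in the WT line. With each library's dependence on transcript GC taken out, 5 of the 28 called members in the mutant line and 5 of the 29 in the WT line were no longer called. Another 2 in the mutant line and 3 in the WT line changed sign. The calls lost in both lines were those of H2AC20, H2BC11, H2BC13, H3C4 and H4C16. H2BC13 then had −0.13 in the mutant line (adjusted p = 0.514) and −0.21 in the WT line (adjusted p = 0.303), and H2AC20 had −0.49 (adjusted p = 0.223) and −0.83 (adjusted p = 0.0576). H1-4 became higher in mutant RIP (0.63, adjusted p = 8.91e-05), as H3C12 did in both lines. Also newly called higher were H1-1 (0.45, adjusted p = 0.0299) and H1-2 (0.64, adjusted p = 0.000253) in mutant RIP. So were H1-3 in WT RIP (0.38, adjusted p = 0.0123) and H2AC21 in both lines. H4C8 was still higher, by 2.09 in the mutant line (adjusted p = 5.81e-11) and 2.08 in the WT line (adjusted p = 1.1e-10), and H2BC26 still lower, by −3.56 (adjusted p = 6.32e-06) and −2.85 (adjusted p = 2.85e-05). The transcript GC used was 43.8% for H4C8 and 44.4% for H2BC26, where the coding sequences have 54.5% and 60.6%. Dependence on coding GC itself was not taken out.

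**Figure D4:**
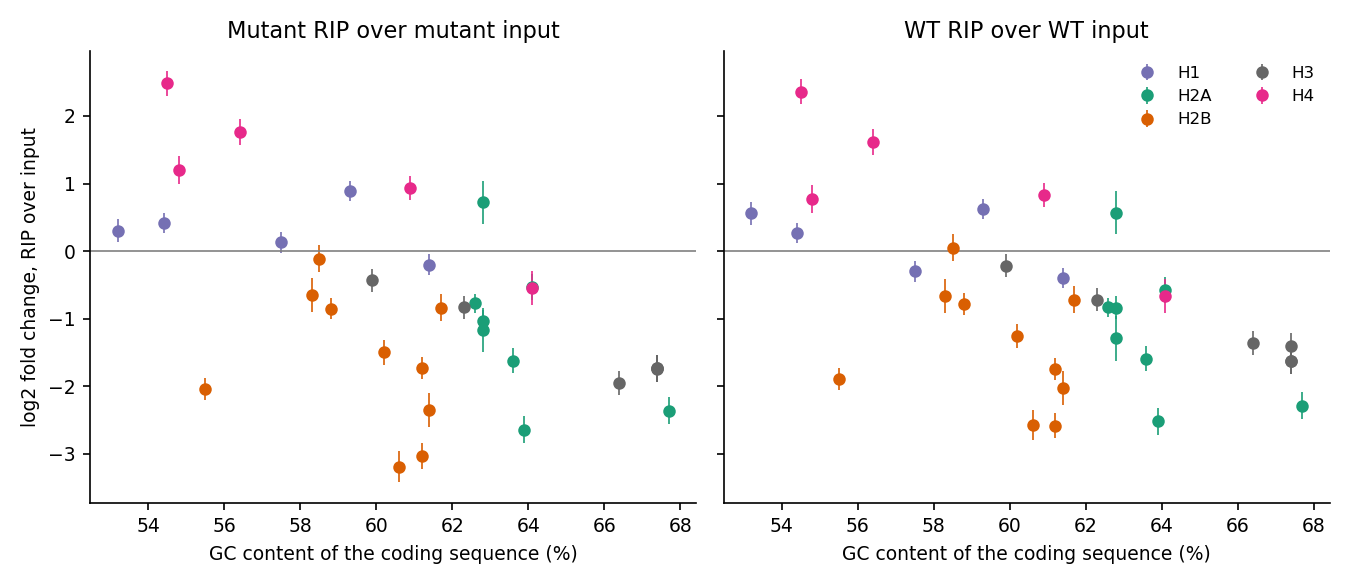
Log2 fold change of RIP over input (with the SE of the fit) against the GC content of the coding sequence in percent, for the 34 tested histone genes coloured by class, in the mutant line (left) and the WT line (right). H4C8, at 54.5% GC, is the highest point of both panels, and the H4 gene at 64.1% (H4C11) lies below 0.

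The enrichments of the 2 lines were set against each other with the difference of the fold changes, RIP over input. Of the 34 genes, 0 were called in the difference of enrichments, where 0.0653% of all genes were called (15 of 22984) in edgeR's quasi-likelihood test. At an unadjusted p under 0.05 there was 1 member, H3-7, where 3005 of all genes passed. DESeq2 called 0 members and 389 genes in all. The largest values were −0.61 ± 0.30 for H2BC26 (adjusted p = 0.402), −0.59 ± 0.25 for H3-7 (adjusted p = 0.315) and −0.46 ± 0.25 for H2BC21 (adjusted p = 0.449). At the other end were 0.43 ± 0.23 for H1-2 (adjusted p = 0.451), 0.43 ± 0.30 for H4C3 (adjusted p = 0.582) and 0.27 ± 0.22 for H1-5 (adjusted p = 0.649). H4C8, the most enriched member, had 0.12 ± 0.24 (adjusted p = 0.889). These errors do not exclude moderate differences between the lines.

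Compared with each other, the precipitates differed for a few genes: 4 histone genes were higher and 2 lower in mutant RIP than in WT RIP, near the background of 9.87% higher and 9.76% lower over all genes. Libraries did not overlap for 1 higher and 0 lower members, where the background was 18.1% and 17.5%. H1-3 had 84.7, 105.7 and 69.1 CPM in mutant RIP, against 54.9, 63.1 and 42.8 in WT RIP. All 3 mutant libraries were above all 3 WT libraries, by 0.69 ± 0.15 (adjusted p = 0.0017), and this call was kept without any single library. With total library sizes it was lost (0.51, adjusted p = 0.0638), as were the other 3 higher calls. H1-2 was also higher in mutant RIP (441.0, 541.0 and 355.2 CPM) than in WT RIP (255.7, 377.3 and 265.8), by 0.57 ± 0.16 (adjusted p = 0.0148), with 1 WT library inside the mutant range. That call was lost without mutant RIP 2 (0.41), WT RIP 1 (0.47) or WT RIP 3 (0.49), with adjusted p of 0.0777 to 0.12. H4C3 was higher by 0.64 ± 0.21 (adjusted p = 0.0367), which was lost without mutant RIP 2 (0.47), mutant RIP 3 (0.56), WT RIP 1 (0.44) or WT RIP 3 (0.60), with adjusted p of 0.117 to 0.18. H4C16 was higher by 0.61 ± 0.18 (adjusted p = 0.0214), which was lost without mutant RIP 2 (0.50), mutant RIP 3 (0.57), WT RIP 1 (0.41) or WT RIP 3 (0.59), with adjusted p of 0.0716 to 0.112, and with the GC trend removed (0.57, adjusted p = 0.0981). Both H4 genes overlapped between the lines.

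The 2 lower genes were H2BC26 and H2BC21, which were also the lowest against input. H2BC26 was lower in mutant RIP by −0.68 ± 0.22 (adjusted p = 0.037) and H2BC21 by −0.55 ± 0.17 (adjusted p = 0.0287), and for both the libraries of the lines overlapped. With the GC trend removed the call of H2BC26 was lost (−0.71, adjusted p = 0.111), as with the length trend removed (−0.64, adjusted p = 0.0564). The same call was lost without mutant RIP 1 (−0.59), mutant RIP 3 (−0.52), WT RIP 2 (−0.48), WT RIP 3 (−0.68) or WT input 3 (−0.68), with adjusted p of 0.0642 to 0.126. The H2BC21 call was lost without mutant RIP 1 (−0.50), mutant RIP 3 (−0.46) or WT RIP 2 (−0.27), with adjusted p of 0.0904 to 0.244. The number of higher members ranged from 1 to 9 and that of lower members from 0 to 3 when single libraries were left out. On the scale-free shares, H2B took 10.8%, 11% and 9.61% of the histone counts in mutant RIP, against 12.2%, 12.6% and 12.8% in WT RIP. H3 took 11.4%, 11% and 9.61% in mutant RIP, against 12%, 12.5% and 12.4% in WT RIP. For these 2 classes the lines did not overlap, while the shares of H1, H2A and H4 did. A share also falls when another class rises. In CPM, H2B summed to 684.3 ± 155 in mutant RIP against 692.2 ± 199.5 in WT RIP (SD, n = 3 each). H3 summed to 694.4 ± 143.2 against 682 ± 202.1, and H4 to 3024 ± 620.8 against 2380 ± 767.2. The sums of these classes overlapped between the lines, with log2 ratios of −0.017 for H2B, 0.026 for H3 and 0.35 for H4.

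Between the inputs, 1 of the 34 histone genes was called higher and 0 lower in mutant input, where 7.47% of all genes were called higher and 17.5% in either direction. With only the groups compared in the fit, 7 were called higher, where 1929 genes were higher over all. At an unadjusted p under 0.05 there were 4 members, where 7015 of all 22984 genes passed. DESeq2 called 3 members higher, where 2238 genes were higher over all. The called gene was H1-3, with 66.0, 68.6 and 59.9 CPM in mutant input, against 43.4, 40.7 and 49.0 in WT input. The libraries did not overlap, and the difference was 0.55 ± 0.15 (adjusted p = 0.0123). It was lost without WT input 2 (0.49, adjusted p = 0.0606). H4C16 had 86.3, 80.1 and 73.7 CPM in mutant input, against 53.2, 49.5 and 67 in WT input, with 0.50 ± 0.18 (adjusted p = 0.0614). H4C16 was called without mutant RIP 1, WT RIP 1 or WT RIP 2 (0.50 each, adjusted p of 0.0178 to 0.0426) or WT input 3 (0.64, adjusted p = 0.0301). The value of H2BC12L was 0.50 ± 0.23 (adjusted p = 0.167), and the lowest was −0.14 ± 0.16 for H2BC15 (adjusted p = 0.597). All 3 mutant inputs lay above all 3 WT inputs for 11 members and below them for 1, where the background was 15.6% and 18.1%. The median over the 34 genes was 0.16, against 0.0029 over all genes. With total library sizes 0 members were called higher and 7 lower, where 386 genes were higher and 6822 lower over all. The members' median was then −0.29, against −0.43 over all genes. The sign of the members' median thus depends on the scaling. Its distance from the median of all genes was 0.15 with TMM and 0.14 with total library sizes.

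**Figure D5:**
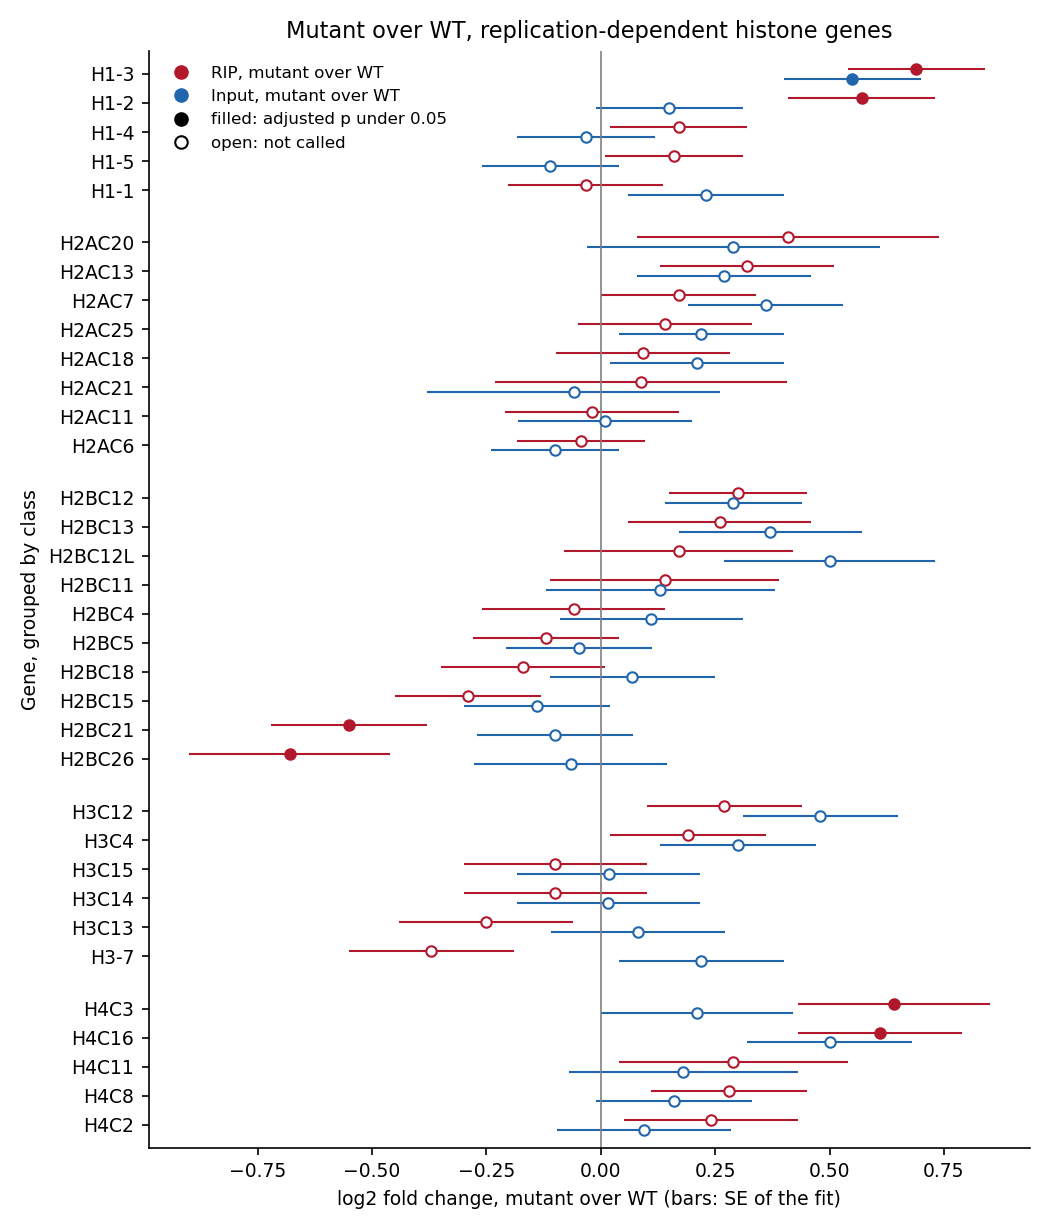
Log2 fold change of mutant over WT for the 34 tested histone genes, by class, between precipitates (red) and between inputs (blue), with the SE of the fit. Filled points passed an adjusted p of 0.05: between precipitates H1-3, H1-2, H4C3 and H4C16 lie right of 0 and H2BC21 and H2BC26 left of it, and between inputs H1-3 is the only filled point.

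Genes that act on histone mRNAs were called in both directions. Of 24 genes for the processing, transcription or decay of histone mRNAs, 7 were higher and 7 lower in mutant RIP than in its input, and 5 and 6 in WT RIP. Over all genes 29.0% were higher and 28.0% lower in mutant RIP, and 25.6% and 25.4% in WT RIP. SLBP, which holds the stem-loop, averaged 43.0 ± 3.51 CPM in mutant RIP against 39.9 ± 1.75 in mutant input, and 52.7 ± 5.85 in WT RIP against 51.5 ± 2.72 in WT input (SD, n = 3 each). It was called in neither enrichment (0.11 ± 0.12, adjusted p = 0.447, and 0.034 ± 0.12, adjusted p = 0.828), and it was lower in mutant input than in WT input (−0.37 ± 0.12, adjusted p = 0.0293). NPAT, the transcriptional activator of histone genes, was higher in RIP by 1.03 ± 0.14 in the mutant line (adjusted p = 4.78e-07) and 0.51 ± 0.13 in the WT line (adjusted p = 0.0027). TUT4 and TUT7 add uridines to RNA ends. TUT4 averaged 127.3 ± 7.2 CPM in mutant RIP against 29.7 ± 4.25 in mutant input, and 82.9 ± 16.2 in WT RIP against 26.3 ± 2.18 in WT input. It was higher in RIP by 2.10 ± 0.14 in the mutant line (adjusted p = 6.32e-12) and 1.65 ± 0.14 in the WT line (adjusted p = 5.92e-10). TUT7 was higher by 1.66 ± 0.16 in the mutant line (adjusted p = 1.64e-09) and 1.28 ± 0.15 in the WT line (adjusted p = 1.61e-07). The median of the 24 genes was 0.013 in the mutant line and −0.021 in the WT line. Between precipitates 5 were higher and 2 lower in the mutant line, where 9.87% of all genes were higher and 9.76% lower. Between inputs 2 were higher and 6 lower, where 1716 of all 22984 genes were higher and 2301 lower.

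Replication-independent histones, whose mRNAs are mostly polyadenylated and made outside S phase as well, were set beside them. Of 12 such genes, 1 was higher and 8 lower in mutant RIP than in mutant input (median −0.43), and 2 were higher and 6 lower in the WT line (median −0.30). Over all genes 29.0% were higher and 28.0% lower in the mutant line, and 25.6% were higher and 25.4% lower in the WT line. H2AX, the variant that is phosphorylated at DNA breaks, averaged 19.4 ± 1.47 CPM in mutant RIP against 77.0 ± 19.2 in mutant input, and 19.9 ± 1.55 in WT RIP against 62.3 ± 7.27 in WT input. It was lower, with −1.98 ± 0.15 in the mutant line (adjusted p = 2.73e-11) and −1.65 ± 0.15 in the WT line (adjusted p = 1.08e-09). H1-10 was lower, with −2.72 ± 0.19 in the mutant line (adjusted p = 6.32e-12) and −2 ± 0.18 in the WT line (adjusted p = 1.18e-09). H2AZ2 was higher in both lines, by 0.70 ± 0.12 in the mutant line (adjusted p = 1.64e-05) and 0.54 ± 0.12 in the WT line (adjusted p = 0.000457). Between precipitates 0 were higher and 4 lower in the mutant line, among them MACROH2A1 (−0.65 ± 0.12, adjusted p = 0.000366), where 9.87% of all genes were higher and 9.76% lower. Between inputs 1 was higher and 2 lower, where 1716 of all 22984 genes were higher and 2301 lower.

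Genes of S phase were set beside the histone genes because histone mRNA is made in that phase. Between the inputs, 0 of 22 tested S phase genes were higher and 8 were lower in the mutant line, with a median of −0.30. Over all 22984 genes, 1716 were higher and 2301 lower between the inputs, with a median of 0.0029. RRM2, a subunit of ribonucleotide reductase, averaged 47.4 ± 2 CPM in mutant input against 80.1 ± 1.34 in WT input and fell by 0.76 ± 0.11 (adjusted p = 3.12e-05). MCM6, of the replicative helicase, fell by 0.66 ± 0.11 (adjusted p = 0.00025), and PCNA, the sliding clamp of DNA polymerase, by 0.57 ± 0.13 (adjusted p = 0.00237). The histone genes in the same inputs had a median of 0.16, and whether these 2 medians differ was not tested. In RIP against input, 6 S phase genes were higher and 7 lower in the mutant line, and 2 were higher and 10 lower in the WT line, beside the shares over all genes given above. POLA1, the catalytic subunit of DNA polymerase alpha, was higher by 1.49 ± 0.14 in the mutant line (adjusted p = 1.37e-09) and 1.04 ± 0.14 in the WT line (adjusted p = 6.01e-07), and TK1, a thymidine kinase, was lower, with −1.71 ± 0.21 in the mutant line (adjusted p = 8.84e-07) and −1.64 ± 0.21 in the WT line (adjusted p = 1.74e-06). Between precipitates 2 were higher and 4 lower in the mutant line, where 9.87% of all genes were higher and 9.76% lower. In the difference of enrichments 0 genes of the 3 lists were called.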

How the data were processed

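Gene-level RNA-seq counts of 12 libraries, 3 in each of 4 groups, were analysed. The deposited values are unscaled read counts for Ensembl genes, given for each library by itself. The authors used a TruSeq stranded total RNA kit, per the labels. Per the submitters' processing notes, bcl2fastq 2.20.0.422, cutadapt, STAR 2.4.0j, featureCounts 1.6.4 and hg19 were used. How strand and reads with several places were handled, and with which annotation release, is not given in the sources used here, so near-copies and overlapping genes are uncertain. Of counts from 1 to 20, 74.1% were even.

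Members were matched by symbol in GENCODE release 44 placed on GRCh37, which holds 55538 of the 57773 identifiers. Unmatched identifiers took at most 21.0% of the counts of any library. Positions and sequences come from that annotation and its transcripts. The members, the gene lists, the tests and the rule for named genes were chosen with earlier results of these data known. The rule took, per class, the 3 genes highest in mean CPM, per comparison the 3 highest and 3 lowest fold changes and the called members, SLBP, NPAT, ELAVL1 and up to 4 called genes per list by adjusted p. Other members were named after their values were seen.

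Genes were filtered with filterByExpr (minimum count 10, minimum total 15), which left 22984, and normalised by TMM (factors of 1.32 to 1.78 for precipitates, 0.526 to 0.909 for inputs). A single fit in edgeR 4.0.16 (R 4.3.3, limma 3.58.1; quasi-likelihood, robust) took all 12 libraries, with 4 group coefficients, 8 residual degrees of freedom and a common biological coefficient of variation of 0.157. There were 5 comparisons: RIP over input in either line, the difference of these 2, and mutant over WT among precipitates and among inputs. Adjusted p are by Benjamini-Hochberg over all tested genes. The comparisons share libraries, so they are not independent. Tables and figures used Python 3.11.15 with pandas 2.3.3, scipy 1.17.1, Biopython 1.88 and matplotlib 3.10.9. Alternatives were DESeq2 size factors and the DESeq2 1.42.0 test, total library size, a filter of 50 counts in 3 libraries (the stricter one) or none, a fit of only the groups compared, the replicate number as a block, a log2 fold limit of 0.585, removal of GC or length trends, class sums without their most counted gene, and each library left out. The GC trend used the longest annotated transcript of each gene, and the length trend its annotated exons merged. Leaving out members with shared windows, or H3C15, was chosen after seeing the data.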

Additional observations from a re-analysis of the deposited data

How the results depend on the processing

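Counts of called members are given as higher and lower. In the mutant enrichment they were 6 and 22 as reported, 19 and 11 with total library sizes, 10 higher with the GC trend removed, and 11 lower without members that share at least 50% of their windows. Over all genes, 6664 were higher and 6438 lower as reported, and 16795 and 922 with total library sizes. With the GC trend removed, 5886 of all genes were higher. In the WT enrichment they were 6 and 23 as reported, 13 and 10 with total library sizes, 2 and 14 with the fold limit, and 11 lower without members that share windows. Over all genes, 5875 were higher and 5835 lower as reported, 15761 and 879 with total library sizes, and 3079 and 2739 with the fold limit. Between precipitates they were 4 and 2 as reported, 0 higher with total library sizes and 0 and 0 with the fold limit. Over all genes, 776 were higher with total library sizes, and 239 were higher and 221 lower with the fold limit. Of the members, 1 was lower between precipitates with DESeq2 size factors, with the GC or length trend removed, or with only the groups compared. In these settings 1954 to 2865 of all genes were lower. Between inputs, 1 higher as reported became 2 with DESeq2 size factors or the stricter filter, 4 with no filter, 7 with only the groups compared, 3 in the DESeq2 test and 0 with total library sizes or the fold limit. Over all genes, 1716 higher became 1954 with DESeq2 size factors, 1756 with the stricter filter, 1677 with no filter and 1929 with only the groups compared. The DESeq2 test gave 2238, total library sizes 386 and the fold limit 195. Lower members between inputs were 0 as reported and 7 with total library sizes, where 2301 and 6822 of all genes were lower. In the difference of enrichments 0 members were called under every alternative run, and over all genes 15 were higher and 0 lower as reported. Those became 331 and 58 in the DESeq2 test, 119 and 66 with no filter, 96 and 9 with total library sizes, 35 and 7 with the GC trend removed, 1 and 0 with the stricter filter and 0 and 0 with the fold limit. That comparison uses all libraries, so no fit with only the groups compared exists for it.

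The replicate numbers did not pair the libraries throughout: 8 of 18 same-numbered pairs had a correlation over 0.1 (range −0.521 to 0.612). Between mutant RIP and WT RIP the same-numbered pairs had 0.357, 0.612 and 0.0441, and pairs of different numbers had −0.455 to 0.158. Between mutant and WT inputs the same-numbered pairs had −0.355, 0.163 and −0.521. A pairing of the precipitates by number is therefore possible, and the main fit does not use it. With the number as a block, 3 members were called higher between inputs, where 1683 of all genes were higher. The other counts were within 1.5 times those reported. With single libraries left out, members ranged from 5 to 7 higher and 19 to 23 lower in the mutant enrichment, 6 to 7 and 19 to 25 in the WT enrichment, 1 to 9 and 0 to 3 between precipitates, and 0 to 3 and 0 to 0 between inputs.

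With total library sizes the ratios of class sums, RIP over input, were 1.62, 0.03, 0.00, −0.04 and 2.53 for H1, H2A, H2B, H3 and H4 in the mutant line, and 1.14, −0.23, −0.14, −0.20 and 2.10 in the WT line. Between inputs, mutant over WT, they were −0.37, −0.23, −0.33, −0.30 and −0.25. Without H2AC18 the H2A ratio of the mutant line, with TMM, was −0.83. Without H3C14, the near-copy of H3C15, the H3 ratio was −1.2 in the mutant line and −1.09 in the WT line. Without H4C2 the share of H4 was 35.0% in mutant RIP against 13.0% in mutant input, and 30.8% in WT RIP against 12.3% in WT input.

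Signs turned with total library sizes, in the mutant enrichment, for H1-4 (1.10), H2AC6 (0.53), H2AC7 (0.25), H2AC13 (0.77), H2AC20 (0.10), H2BC4 (1.17), H2BC5 (0.45), H2BC11 (0.63), H2BC13 (0.46), H3C4 (0.46), H3C12 (0.86) and H4C11 (0.72). In the WT enrichment they turned for H1-2 (0.74), H1-4 (0.63), H2AC6 (0.21), H2AC7 (0.19), H2AC13 (0.45), H2BC5 (0.25), H2BC11 (0.36), H2BC13 (0.29), H3C4 (0.32), H3C12 (0.81) and H4C11 (0.36). With the GC trend removed they turned for H1-4 (0.63), H2AC13 (0.27), H3C12 (0.54) and H4C11 (0.39) in the mutant enrichment, for H1-2 (0.06), H1-4 (0.23), H2AC13 (0.01), H3C12 (0.52) and H4C11 (0.02) in the WT enrichment, and for H2BC15 (0.02) between inputs. With the length trend removed they turned for H1-2 (−0.09) and H2BC4 (0.13) in the mutant enrichment. Leaving out 1 library turned H1-2 (−0.03 without mutant RIP 2) and H2BC4 (0.05 without mutant RIP 1, with a range of −0.38 to 0.05) in the mutant enrichment, and H2BC4 (−0.21 without WT RIP 2) in the WT enrichment. The calls of H2BC11 were lost without any of 6 libraries in each enrichment (−0.66 to −0.49 in the mutant line and −0.71 to −0.44 in the WT line). The cause of these moves was not tested, beyond the shift of all genes that total library sizes bring. The counts of genes that share windows with near-copies are uncertain.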
